A study of Danio rerio with 6 samples.

Results

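Transcript levels of 4 genes of DNA replication and cell division, top2a, dut, cdk2 and lmnb2, were examined on 6 Affymetrix arrays, each hybridised with RNA of whole zebrafish embryos collected 72 h after fertilization. The genes were found by their symbol, as written or as updated through a reference gene table, in any of 3 comparison tables deposited by the authors. This gave 5 probe sets of 4 genes, out of 15502 probe sets on the arrays, controls left out. The tables name 2331 probe sets with 1 gene, 2138 genes in all. The 3 groups hold 2 arrays each. ERbeta2 MO embryos carried an antisense morpholino, at 50 uM, that blocks translation of the estrogen receptor ERbeta2. The coMO embryos carried a standard control morpholino at the same dose, and uninjected embryos carried neither. All groups shared the source of the eggs, pooled from different aquaria, and the labels name no strain and no transgene. Injection was done on early cleavage stages, so the whole embryo is the treated unit and no tissue was separated. A morpholino against translation need not lower its target's transcript, and no probe set of the receptor was used here to check the labels. The labels call the replicates biological but do not say whether they came from separate spawnings, and the p-values here measure only the spread between arrays.

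A dividing cell copies its DNA in S phase and parts the copies in mitosis. The kinase encoded by cdk2 works with cyclins E and A and drives entry into and passage through S phase. The enzyme encoded by dut splits dUTP to dUMP, which keeps uracil out of new DNA and supplies the precursor of thymidine nucleotides. Topoisomerase II alpha, encoded by top2a, passes one DNA double strand through another, untangles the copies before they part, and is made mainly by cycling cells. Lamin B2, encoded by lmnb2, is a filament protein of the nuclear lamina, the mesh under the nuclear envelope that is taken apart and rebuilt at each division; in mice it is needed for the migration of newborn neurons. In the zebrafish embryo at this stage, division goes on mainly in progenitor zones such as those of the retina, the brain and the gut, while many other cells have left the cycle.

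The values are signals per probe set on a linear scale, which the submitters' processing notes credit to MAS5, and their scale is such that the trimmed mean lay close to 500 on each array. Correlations between arrays, across all probe sets on the log2 scale, were 0.975 to 0.987 between replicates, 0.900 to 0.908 between ERbeta2 MO arrays and the other arrays, and 0.971 to 0.979 between coMO and uninjected arrays. The GAPDH control gave a 3′ to 5′ ratio of 2.14 and 2.15 on ERbeta2 MO arrays, against 1.34 to 1.66 on the other 4 arrays. For the acta1 control the ratio was higher on every array, at 13.57 and 11.59 on ERbeta2 MO arrays. It was 7.64 and 5.72 on coMO arrays and 5.41 and 10.04 on uninjected arrays, so uninjected replicate 2 lay near the ERbeta2 MO arrays. Signals of the poly-A RNA spikes averaged 6.61 and 6.88 on the log2 scale on ERbeta2 MO arrays, against 7.23 to 7.83 on the others. The part of these differences in the results below was not tested, except for the scaling on spikes. Gene names come from tables in which 0 of 5410 deposited folds lie between 0.5 and 2, so the 4 genes were named because they differed on these arrays, and their direction there is not independent evidence. In whole embryos, fewer cells of a type and less RNA per cell cannot be told apart.

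In ERbeta2 MO embryos the signals of top2a, dut and cdk2 stood below those of both coMO and uninjected embryos, while lmnb2 stood below uninjected embryos only. Differences were fitted with limma on log2(signal + 16), and calls were made below 0.05 after Benjamini-Hochberg adjustment over the 9302 probe sets tested. Of the 5 probe sets 4 were tested, 1 for each gene, and the second probe set of top2a fell under the filter on low signals. Against coMO, 3 of the 4 tested probe sets were called lower, where 26.8% of all tested probe sets and 44.4% of the named ones were called lower. Against uninjected embryos 4 of 4 were called lower, where 26.5% of all tested probe sets and 44.6% of the named ones were. Between coMO and uninjected embryos 1 of 4, lmnb2, was called lower, where 0.215% of all tested probe sets and 0.587% of the named ones were called lower, and 0 of 4 were called higher, against 0.29% of all and 0.373% of the named ones. The 3 comparisons share arrays in pairs, so they are not separate evidence. Between ERbeta2 MO and coMO, 56.2% of all tested probe sets were called in either direction. The share of all probe sets whose groups do not overlap was not counted, so each such statement here and below is a description only.

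**Figure D1:**
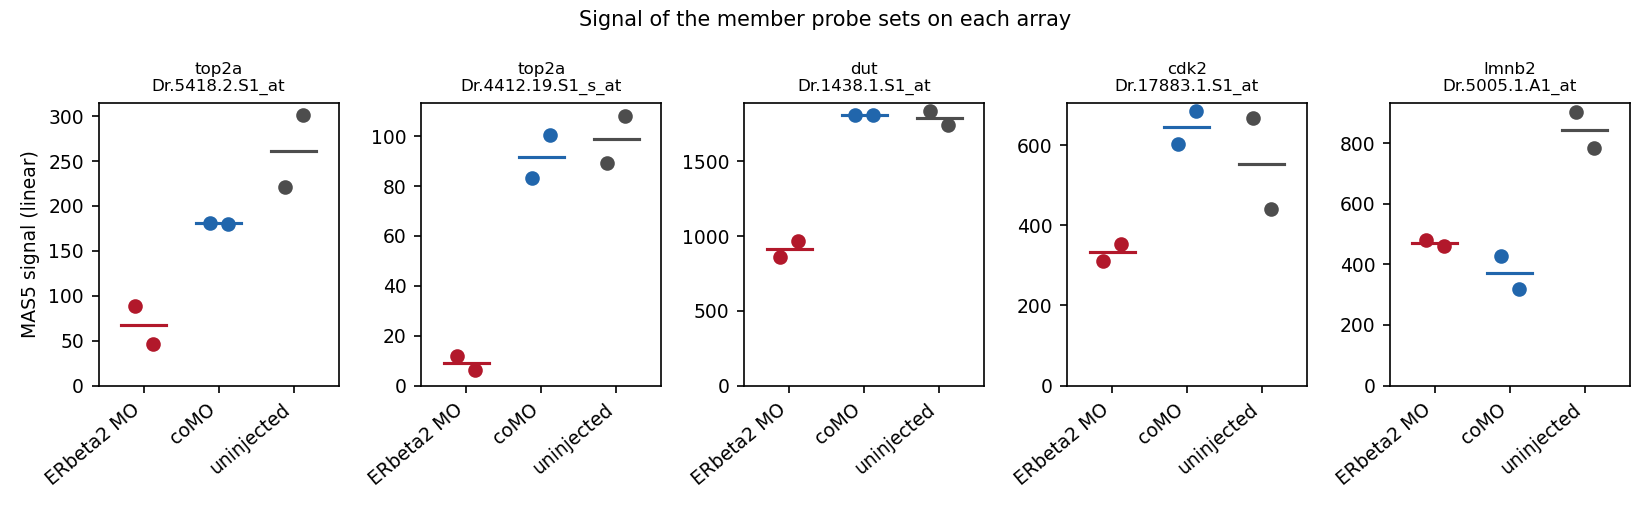
Signal on each array (vertical axis, MAS5 signal, linear, from 0) of the 5 probe sets of top2a, dut, cdk2 and lmnb2 in ERbeta2 MO, coMO and uninjected embryos; points are arrays and bars are group means (n = 2). Both ERbeta2 MO arrays lie below the other 4 arrays for top2a, dut and cdk2, whereas for lmnb2 they lie between the coMO arrays (319 and 427) and the uninjected arrays (785 and 903). The share of all probe sets that separate in this way was not counted.

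The kinase gene cdk2 had signals of 312 and 353 in ERbeta2 MO embryos, 604 and 686 in coMO embryos and 667 and 440.1 in uninjected embryos. Both ERbeta2 MO arrays were below all others, while the coMO and uninjected arrays overlapped. The means were 332 ± 29.2 in ERbeta2 MO embryos, 645 ± 58.1 in coMO embryos and 554 ± 161 in uninjected embryos (SD, n = 2 each). The difference between ERbeta2 MO and coMO was -0.92 on the log2 scale (95% interval -1.30 to -0.55, SE 0.18), a level 1.90-fold lower, with a limma adjusted p of 0.000195. The difference from uninjected embryos was -0.68 (interval -1.06 to -0.31), 1.61-fold lower, with a limma adjusted p of 0.00306. This last difference was smaller without uninjected replicate 1, at -0.39, and was not called. That fit leaves 1 uninjected array. The coMO and uninjected levels did not differ beyond their spread (0.24, interval -0.14 to 0.62, limma adjusted p 0.838). The authors' deposited table lists cdk2 at a fold of 0.493 for ERbeta2 MO over coMO and has no fold for it over uninjected embryos.

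The dUTPase gene dut, deposited under the symbol zgc:103772 and matched by its gene identifier, was the brightest of the 5 probe sets. Its signals were 863 and 971 in ERbeta2 MO embryos, 1814 and 1813 in coMO embryos and 1840.01 and 1742 in uninjected embryos. Both ERbeta2 MO arrays lay far below the other 4, among which coMO and uninjected arrays overlapped. Means were 917 ± 75.8 in ERbeta2 MO embryos, 1813 ± 0.806 in coMO embryos and 1791 ± 69.3 in uninjected embryos (SD, n = 2 each). On the log2 scale ERbeta2 MO stood at -0.97 relative to coMO (interval -1.25 to -0.70, SE 0.13), 1.96-fold lower, with a limma adjusted p of 2.51e-06. Relative to uninjected embryos it stood at -0.96 (interval -1.23 to -0.68), 1.94-fold lower, with a limma adjusted p of 3.02e-06. The difference between coMO and uninjected embryos was 0.018, with an interval of -0.26 to 0.29 (limma adjusted p 0.985). The authors' deposited tables give folds of 0.44 over coMO and 0.465 over uninjected embryos, against ratios of mean signals of 0.506 and 0.512.

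The topoisomerase gene top2a was measured by 2 probe sets, both dim. For the brighter one the signals were 88.1 and 45.7 in ERbeta2 MO embryos, 181 and 179.7 in coMO embryos and 221 and 302 in uninjected embryos. The groups were ordered ERbeta2 MO, coMO, uninjected without overlap, and the ERbeta2 MO and uninjected replicates each lay far apart. Means were 66.9 ± 30.0 in ERbeta2 MO embryos, 180.5 ± 1.103 in coMO embryos and 261 ± 57.1 in uninjected embryos (SD, n = 2 each). The fitted difference was -1.29 on the log2 scale between ERbeta2 MO and coMO (interval -1.80 to -0.78, SE 0.25), 2.45-fold lower, with a limma adjusted p of 0.000137. Between ERbeta2 MO and uninjected embryos it was -1.77 (interval -2.29 to -1.26), 3.42-fold lower, with a limma adjusted p of 3.07e-06. The coMO level did not pass the test against uninjected embryos, at -0.48 (interval -0.99 to 0.030, limma adjusted p 0.682, unadjusted p 0.0638), although the 2 groups did not overlap. Its mean lay just above the filter, at rank 40.1% of all probe sets, and it passed through the control groups: both ERbeta2 MO arrays were below the filter's level and the 4 other arrays above it. A probe set that passed in this way had to differ, so its call adds no support to the counts. Among the other 3 genes, 2 of 3 were called lower against coMO and 3 of 3 against uninjected embryos. Of all tested probe sets 26.8% and 26.5% were called lower, and of the named ones 44.4% and 44.6%. These 3 genes were also named through a fold on these arrays, so their counts are a description only.

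The second probe set of top2a had signals of 11.9 and 6.19 in ERbeta2 MO embryos, 83.3 and 100.4 in coMO embryos and 89.4 and 108 in uninjected embryos. Both ERbeta2 MO arrays were below the other 4 and under the offset of 16 added before the logarithm, coMO and uninjected arrays overlapped, and the filter left this probe set out. In a fit without that filter the difference was -2.11 between ERbeta2 MO and coMO, with a limma adjusted p of 8.95e-05, and -2.20 against uninjected embryos, with a limma adjusted p of 5.88e-05. With ERbeta2 MO signals this low, the size of these differences depends on the offset. The authors' deposited tables give folds of 0.429 over coMO and 0.372 over uninjected embryos, against ratios of mean signals of 0.0986 and 0.0917. The ending s_at of its identifier marks a probe set whose probes match several transcripts. Its identifier stem is shared by 23 probe sets, and the 3 of them that carry 1 name are named eif4g2a, stmn1b and top2a, so the stem does not stand for 1 gene. For the first probe set the authors' deposited folds are 0.498 over coMO and 0.396 over uninjected embryos, against ratios of mean signals of 0.371 and 0.256. An unnamed probe set that shares the identifier stem of the first had signals of 76.9 and 108 in ERbeta2 MO embryos, 71.9 and 136 in coMO embryos and 139 and 113 in uninjected embryos, with overlapping ERbeta2 MO and coMO arrays. Whether it measures top2a is not given in the files.

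The lamin gene lmnb2 differed from the other 3 in its order of levels. Its signals were 480 and 461 in ERbeta2 MO embryos, 427 and 319 in coMO embryos and 903 and 785 in uninjected embryos. Both injected groups lay below the uninjected one, and the ERbeta2 MO arrays lay just above the coMO arrays. Means were 471 ± 13.4 in ERbeta2 MO embryos, 373 ± 76.6 in coMO embryos and 844 ± 82.9 in uninjected embryos (SD, n = 2 each). The difference between ERbeta2 MO and coMO was 0.34 on the log2 scale (interval -0.0069 to 0.68, SE 0.17) and missed the threshold, with a limma adjusted p of 0.0882. Without coMO replicate 1 it was 0.54, with a limma adjusted p of 0.0209. Against uninjected embryos ERbeta2 MO stood at -0.82 (interval -1.16 to -0.47), 1.76-fold lower, with a limma adjusted p of 0.000276.

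Between coMO and uninjected embryos lmnb2 stood at -1.16 (interval -1.50 to -0.81, SE 0.17), 2.23-fold lower in coMO, with a limma adjusted p of 0.00128. This was the lowest difference of all 9302 tested probe sets in that comparison, in which 0.505% were called in either direction. Without coMO replicate 2, the array with a signal of 319, the difference was -0.95 and was not called. That fit leaves 1 coMO array, and calls over all probe sets fell in it too. In the authors' deposited table of 21 probe sets for uninjected over coMO, lmnb2 has a fold of 3.035. That fold comes from the same arrays and helped to name the gene here, so its rank and call are a description only. The deposited tables also give 0.434 for ERbeta2 MO over uninjected embryos and no fold for ERbeta2 MO over coMO. The name of this probe set was deposited as wu:fc15d06, and it was matched to lmnb2 through an older symbol. Another 2 probe sets share its stem and are unnamed. The brighter had signals of 2450 and 2552 in ERbeta2 MO embryos, 2286 and 2556 in coMO embryos and 2702 and 2670.4 in uninjected embryos, and its coMO level stood at -0.15 relative to uninjected embryos (limma adjusted p 0.856). The dimmer had signals of 418 and 283 in ERbeta2 MO embryos, 157 and 226 in coMO embryos and 262 and 228 in uninjected embryos, with a difference of 0.81 between ERbeta2 MO and coMO (limma adjusted p 0.00266), of 0.47 between ERbeta2 MO and uninjected embryos (limma adjusted p 0.0646) and of -0.34 between coMO and uninjected embryos (limma adjusted p 0.766). Whether either measures the lamin transcript is not given in the files.

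**Figure D2:**
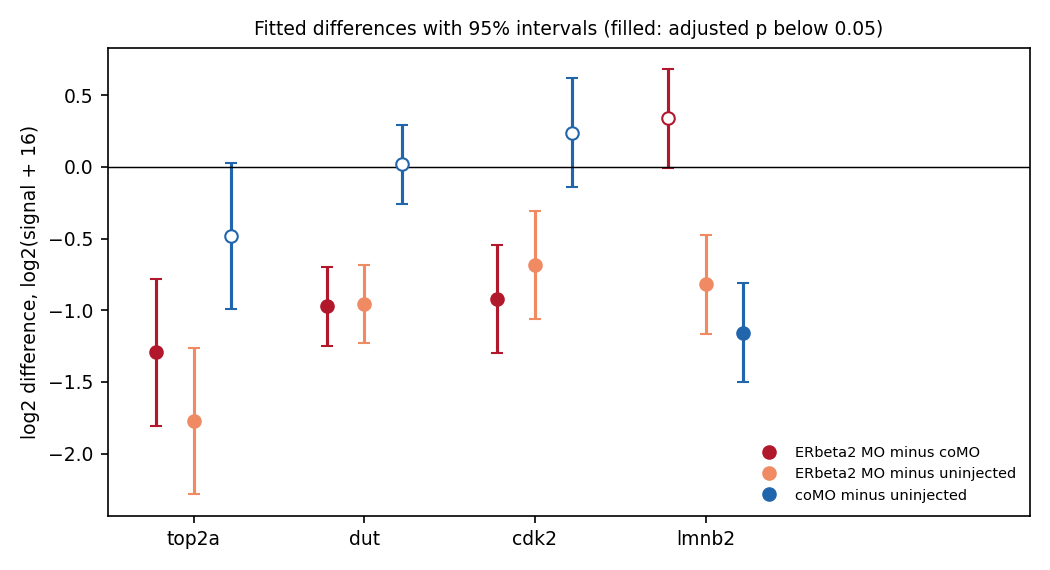
Fitted differences on the log2(signal + 16) scale (vertical axis) for the tested probe set of each gene, with 95% intervals; filled points have a limma adjusted p below 0.05. With the arrays as deposited, top2a, dut and cdk2 are lower in ERbeta2 MO embryos in both comparisons and not called between coMO and uninjected embryos, whereas lmnb2 is called lower in ERbeta2 MO and in coMO against uninjected embryos; on a poly-A spike scale cdk2 in ERbeta2 MO over coMO is at 0.011.

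The size of the ERbeta2 MO differences, and which of them were called, depended on how the arrays were put on a common scale. The median difference of all tested probe sets between ERbeta2 MO and coMO was 0.045 as deposited, 0.21 with arrays centred on their medians, 0.50 on hybridization controls and 0.98 on poly-A spikes. On the spike scale the differences were -0.36 for top2a, -0.040 for dut and 0.011 for cdk2, none called, and 1.27 for lmnb2, called higher. The spikes themselves were dim. Their log2 means of 6.88 and 6.61 on the ERbeta2 MO arrays lay below 7.34, the lowest mean that passed the filter on low signals. That of uninjected replicate 1, at 7.23, did too. The share of calls that were higher between ERbeta2 MO and coMO, over all probe sets, was 52.4% as deposited, 65.3% on medians, 82.4% on hybridization controls and 94.4% on spikes. Relative to the median of all tested probe sets, these 3 shifts leave each gene in place: top2a lay 1.34 below that median, dut 1.02 below and cdk2 0.97 below, and lmnb2 lay 0.29 above it. Under quantile normalization top2a lay 1.01, dut 1.16 and cdk2 1.01 below the median. In the comparison with uninjected embryos the distances below the median as deposited were 1.82 for top2a, 1.00 for dut, 0.73 for cdk2 and 0.86 for lmnb2, and on the spike scale only top2a was still called, at -1.14. For lmnb2 the difference between coMO and uninjected embryos was -1.16 as deposited and -1.45 on spikes, called on both scales.

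**Figure D3:**
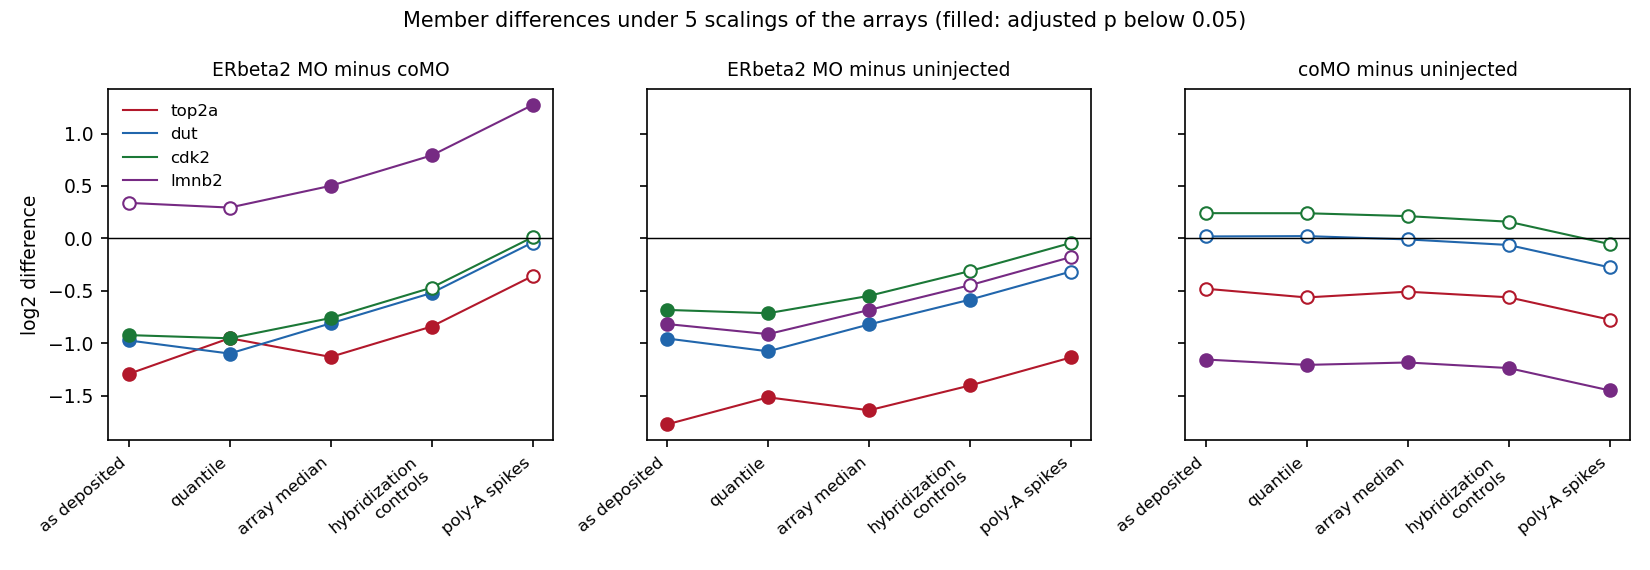
Difference of each gene (vertical axis, log2) under 5 scalings of the arrays (horizontal axis), 1 panel per comparison; filled points have a limma adjusted p below 0.05. Between ERbeta2 MO and coMO the points move up together on array medians, hybridization controls and poly-A spikes, but under quantile normalization only that of top2a moves up; cdk2 is at -0.92 as deposited and 0.011 on poly-A spikes, and lmnb2 in coMO against uninjected embryos lies between -1.16 and -1.45.

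For each probe set the 3 most similar other genes were taken by Euclidean distance between centred log2 profiles over the 6 arrays. The choice was among 1492 probe sets that passed the filter and had an informative name. For cdk2 these were mg:db04d07, mpst and gpm6ba, at distances of 0.20 to 0.29 against a median of 1.93. For dut they were yipf3, pygl and slc3a2a, at 0.13 to 0.14 against a median of 2.04. For top2a they were cat, gchfr and nr1d2b by the first probe set, at 0.44 to 0.51 against a median of 2.72, and pls1, tfa and sncgb by the second, at 0.19 to 0.22 against 3.29. No gene of the pathway lists below was among them, but list genes under the filter, such as mcm3, mcm6, tk1 and mki67, could not be picked. With 3 picks per probe set, this absence carries no weight. For lmnb2 the nearest was ppargc1b, at 0.11 against a median of 1.91. Its differences were 0.38 for ERbeta2 MO over coMO and -1.13 for coMO over uninjected embryos, close to those of lmnb2 because it was chosen by distance on the same arrays. The next, fosab and diabloa, were at 0.51 and 0.54.

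The deposited tables name a small share of the other genes of these pathways, and most of the probe sets so named were called higher in ERbeta2 MO embryos. Lists of 346 genes in 7 groups held 53 that the deposited tables name, with 56 probe sets, of which 46 were tested. Between ERbeta2 MO and coMO 39 were called higher and 7 lower, where 29.5% and 26.8% of all tested probe sets and 52.2% and 44.4% of the named ones were. Their median difference was 0.94, against 0.56 over the 1875 named probe sets tested and 0.045 over all tested; having passed a fold on these arrays, they had to differ, and the median is a description only. Against uninjected embryos the counts were again 39 higher and 7 lower, with a median of 1.08 beside 0.59 over the named ones, where 30.4% and 26.5% of all were. For dhfr and smc1al both ERbeta2 MO arrays were below the level of the filter on low signals. For uck2a and tmpoa both coMO arrays were below it, and for ezh2 coMO replicate 1 and both uninjected arrays. Passing in this way favours a difference, so the calls of these probe sets add no support to the counts. On poly-A spikes limma called 39 higher and 0 lower against coMO, with 1 lower at an unadjusted p under 0.05, where 69.8% of all tested probe sets were called higher and 4.17% lower. Against uninjected embryos it called 39 higher and 2 lower on that scale, where 53.3% and 6.25% of all were. Between coMO and uninjected embryos 0 of 46 were called by limma, where 0.505% of all tested probe sets were called in either direction. At an unadjusted limma p under 0.05, 1 was higher and 1 lower, where 734 of all 9302 tested probe sets passed. With so few called over all probe sets, the 0 is a description only. As the tables list only probe sets past their fold, a listed gene that did not move is unnamed here and enters no count. Listed genes would also be missed on the 590 of 3140 deposited probe sets without a gene name and the 219 with several.

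Counts by list hold only named genes, and of all named probe sets tested 52.2% were called higher and 44.4% lower against coMO. Nucleotide synthesis, the pathway of dut, had 10 of 12 tested probe sets higher and 2 lower between ERbeta2 MO and coMO. Higher were purine enzymes, namely paics at 1.45, impdh2 at 1.35, gmps at 1.20 and prps1a, which makes the activated ribose, at 1.25. The uridine-cytidine kinase uck2a stood at 1.80 and the CTP synthase ctps1a at 1.60, with limma adjusted p of 1.11e-07 and 5.75e-09. For uck2a both coMO arrays were below the level of the filter on low signals and both ERbeta2 MO arrays above it. It passed through the ERbeta2 MO arrays, so its call adds no support to the count. The 2 lower ones were dhfr, the reductase that renews folate for thymidylate synthesis, and ctps1b, a second CTP synthase; both were singled out after their values were seen. The dhfr signals were 135 and 141 in ERbeta2 MO embryos, 262 and 390.5 in coMO embryos and 397 and 407 in uninjected embryos, with no overlap. Its difference was -1.13 (limma adjusted p 5.17e-05), and that of ctps1b was -0.89 (limma adjusted p 0.000635). For dhfr both ERbeta2 MO arrays were below the level of the filter on low signals and every control array above it. It passed through the control groups and had to differ, so its call adds no support to the count.

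DNA replication proper, in which cdk2 and top2a act, had 3 of 57 listed genes named and 1 tested. The tested gene, tipin, a part of the complex that protects stalled forks, was called higher at 0.85 (limma adjusted p 0.000402). The other 2, mcm3 and mcm6, are subunits of the replicative helicase; both lay under the filter and are named here after their values were seen. The mcm3 signals were 58.1 and 62.2 in ERbeta2 MO embryos, 197 and 187 in coMO embryos and 169.8 and 207 in uninjected embryos. The mcm6 signals were 35.8 and 53.2 in ERbeta2 MO embryos, 152 and 163 in coMO embryos and 191 and 231 in uninjected embryos. In both, the ERbeta2 MO arrays were below every control array, a description only, as the share of all probe sets doing so was not counted. Without the filter their differences from coMO were -1.45 for mcm3 and -1.53 for mcm6, with limma adjusted p of 0.000145 and 0.000195.

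Another 2 genes under the filter, tk1 and mki67, known as markers of cycling cells, are described here after their values were seen, and other genes of their lists were called higher. The thymidine kinase gene tk1 had 7.69 and 36.1 in ERbeta2 MO embryos, 109 and 166 in coMO embryos and 125 and 154 in uninjected embryos, a difference from coMO of -2.10 without the filter (limma adjusted p 0.000339). The proliferation marker mki67 had 56.7 and 50.9 in ERbeta2 MO embryos, 123 and 139 in coMO embryos and 101 and 83.8 in uninjected embryos. Its difference was -1.07 from coMO (limma adjusted p 0.00371) and -0.63 from uninjected embryos, which missed the threshold (limma adjusted p 0.0603). Without the filter 43 of the 56 probe sets were called higher and 11 lower between ERbeta2 MO and coMO, where 18% and 22.8% of all 15502 probe sets were. Of the 10 probe sets under the filter, those of tk1, mcm3, mcm6 and mki67 were called lower. Those called higher were casp8, a protease of cell death, at 1.68, hmga1a, a chromatin protein gene, at 2.55, the stress-response gene gadd45aa at 1.80, the Polycomb gene suz12a at 0.73 and cdc27, a subunit of the anaphase-promoting complex, at 2.06. The size for casp8, with coMO signals of 8.16 and 53.2, also depends on the offset. So does that for tk1, with ERbeta2 MO signals of 7.69 and 36.1. The transcription factor gene e2f5 missed the threshold at 0.62 (limma adjusted p 0.0898). The purine synthesis gene gart, called with the filter, was not called without it, at 0.48 (limma adjusted p 0.0834).

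The next counts stand beside 52.2% of named probe sets tested that were called higher against coMO and 44.4% that were called lower. On the list of cyclins, CDKs and their regulators, 5 of 7 tested probe sets were higher and 2 lower between ERbeta2 MO and coMO. These 7 include no CDK and no cyclin E or A, so the count does not describe the family of cdk2. The lower ones were both probe sets of ccng2, an atypical cyclin linked to exit from the cycle, at -1.49 and -1.17. The higher ones were the Myc genes mycn, at 1.51 and 0.93 for its 2 probe sets, and mycb, at 1.28, the ubiquitin ligase subunit skp2 at 1.19 and the CDK inhibitor cdkn1ca at 1.24. In mitosis and chromosome segregation, 3 of 5 were higher: plk3, a polo-like kinase, at 1.31, ect2, a regulator of cytokinesis, at 1.27, and anapc1, a subunit of the anaphase-promoting complex, at 0.86. The lower 2 were smc1al, a cohesin subunit, at -1.24, and stmn1b, a microtubule regulator, at -1.45. For smc1al both ERbeta2 MO arrays were below the level of the filter on low signals and every control array above it. It had to differ, so its call adds no support to the count.

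Of the nuclear lamina, envelope and pores, the setting of lmnb2, only 10 of 44 listed genes were named, so the whole set is not described. Among all named probe sets tested, 52.2% were called higher between ERbeta2 MO and coMO and 44.4% lower. The lmnb2 probe set missed the threshold at 0.34. Of the tested probe sets of the list, 11 of 11 were higher in ERbeta2 MO than in coMO embryos, with a median of 1.07. Nuclear pore genes made up most of them, with nup50 at 1.18, nup188 at 1.17, nup43 at 1.096 and nup93 at 0.85. The probe set of tmpoa, also counted, passed the filter on low signals through the ERbeta2 MO arrays, so its call adds no support. The 2 probe sets of rcc1, which loads Ran with GTP on chromatin, stood at 1.09 and 1.15, and rangap1b, which has Ran split its GTP, at 1.07. Of chromatin genes 6 of 7 were higher, among them the nucleolar protein genes npm1a at 1.26 and ncl at 0.94, the histone chaperone gene setb at 0.87, the linker histone gene h1-10 at 1.01 and the Polycomb gene eed at 0.64. The lower one, hmgn3, a nucleosome-binding protein gene, stood at -1.10. Among the higher ones, ezh2 passed the filter on low signals mainly through the ERbeta2 MO arrays, so its call adds no support. All 3 tested genes of the DNA damage response were higher: mdm2, the ligase that turns over p53, at 1.45, ccng1, a p53 target, at 0.89, and baxa, which promotes cell death, at 0.88.

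**Figure D4:**
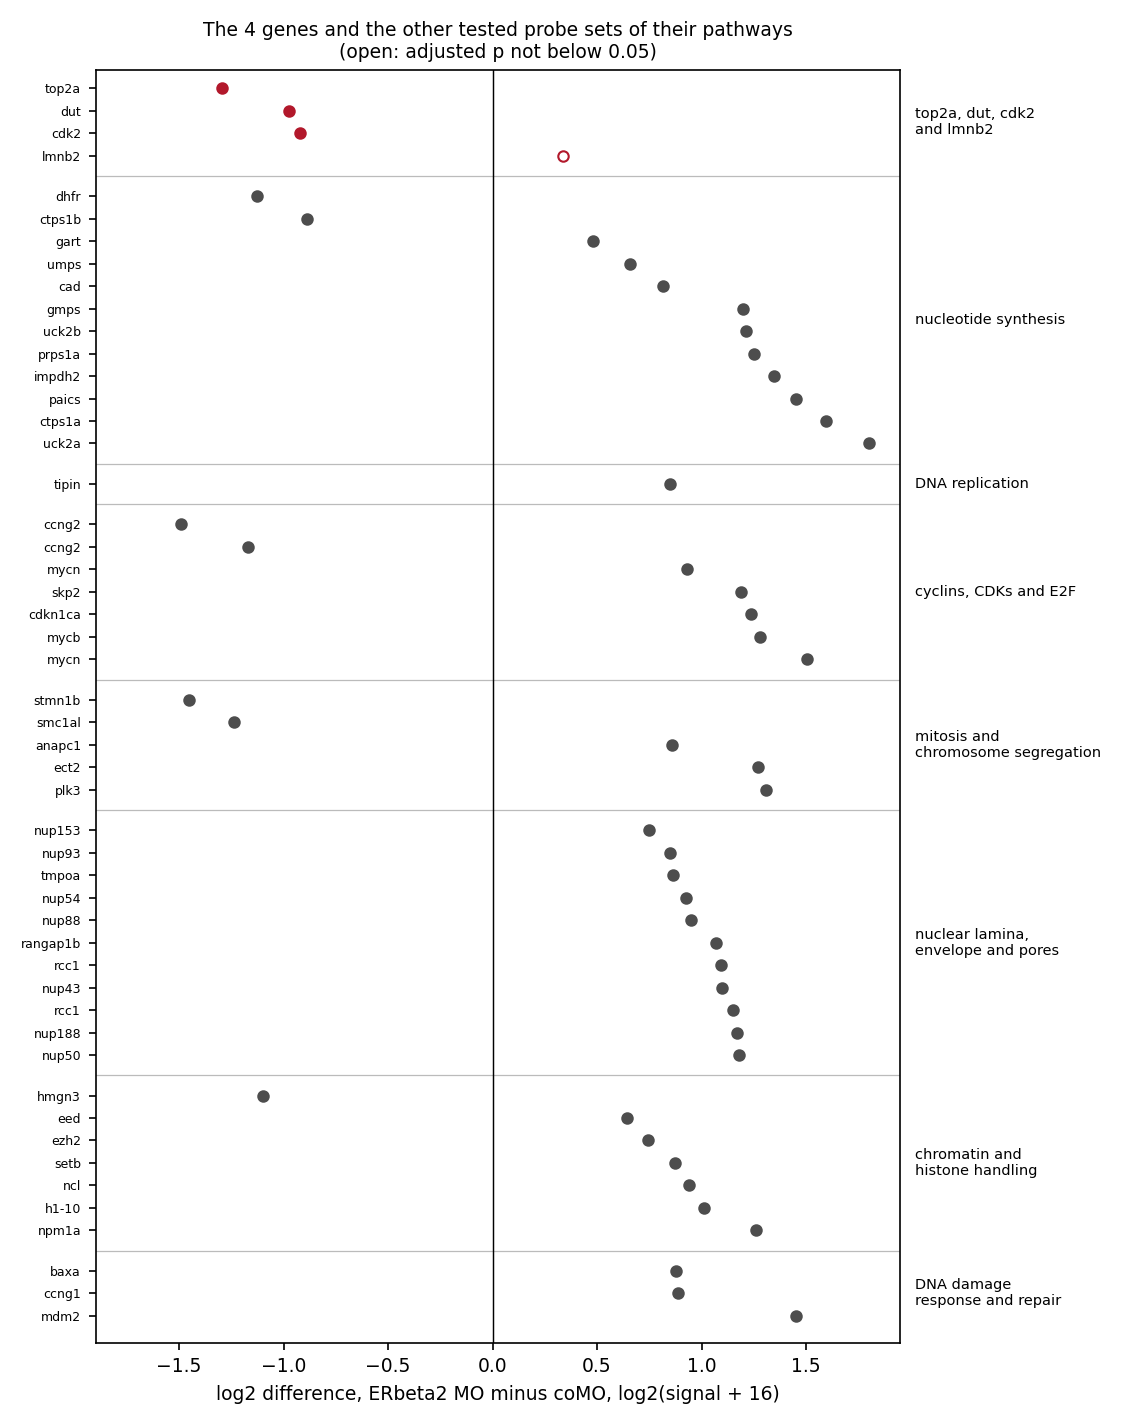
Difference between ERbeta2 MO and coMO embryos (horizontal axis, log2(signal + 16) scale, arrays as deposited) for the tested probe set of each of the 4 genes, in red, and the 46 tested probe sets of the pathway lists, in grey, ordered within each list; open points have a limma adjusted p of 0.05 or above. Most grey points are to the right of 0 (39 of 46), while top2a, dut and cdk2 are to the left, between -1.29 and -0.92. On a poly-A spike scale these 3 lie between -0.36 and 0.011. All points are of probe sets that passed a fold on these arrays, so listed genes that did not move are not shown. Those of top2a, dhfr, smc1al, uck2a, tmpoa and ezh2 passed the filter on low signals mainly through the groups where they are high.

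Marker genes of other cell types differed between the same groups. Of 23 listed genes of neural progenitors and early neurons, 3 were named, elavl3, neurod4 and pax6b. Their sum is not a measure of dividing progenitors. It was 2325 and 2303 in ERbeta2 MO embryos, against 1086 to 1244 on the control arrays, and 2 of 2 tested were called higher against coMO. Signals of photoreceptor markers, 14 of 20 listed genes named, summed to 1002 and 999 in ERbeta2 MO embryos, against 104310 to 129460 on the control arrays. Liver and pancreas markers, 14 of 21 named, summed to 12436 and 12485 in ERbeta2 MO embryos and 67379 to 75113 on the control arrays. Red blood cell markers, 8 of 15 named, summed to 89758 and 89974 against 42042 to 50016. Against coMO, 14 of 15 tested liver and pancreas probe sets were called lower and 1 higher. All 15 tested of photoreceptors were called lower and all 7 of red blood cells higher. Over all tested probe sets 26.8% were called lower and 29.5% higher, and over the named ones 44.4% and 52.2%. No named marker of these 4 lists had a signal of 0 on any array. The part of a different cell make-up in the levels of top2a, dut, cdk2 and lmnb2 was not tested.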

How the data were processed

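The deposited value table holds signals, intensities on a linear scale, which the authors computed by MAS5, per the submitters' processing notes (version and settings not given in the sources used here). Folds, as linear ratios, come from 3 deposited tables of the authors' comparisons, for 2723, 2666 and 21 probe sets, per the file headers. Gene names were taken from these tables and updated through a reference gene table, by gene identifier for 1669 probe sets, symbol for 41 and older symbol for 197. For 424 the deposited symbol was kept without a match.

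From the signals, log2(signal + 16) was taken. The 115 control probe sets and the 40% with the lowest mean were left out. A limma model (version 3.58.1, R 4.3.3, lmFit and trended eBayes) took in all 6 arrays, with 3 groups and 3 residual degrees of freedom. Its code was run on simulated data with few changed probe sets and no shifts between arrays, a setting unlike these data. That run lends no support to the calls. eBayes pools spread over probe sets. The number of arrays limits the precision.

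Named were all probe sets of the 4 genes, up to 6 genes per pathway list by smallest p between ERbeta2 MO and coMO, and the 3 most similar genes. The genes, lists and rule were chosen with earlier results of these data known. Other offsets, filters, scalings, fits and left-out arrays were tried. Sequences were not used here, and 1 marker gene is not reported here.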

Additional observations from a re-analysis of the deposited data

How the results depend on the processing

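Scaling on poly-A spikes left 1 of the 4 tested probe sets called between ERbeta2 MO and coMO (lmnb2, higher) and 1 between ERbeta2 MO and uninjected embryos (top2a, lower), and hybridization controls left 2 between ERbeta2 MO and uninjected embryos. Between ERbeta2 MO and coMO, top2a was at -0.36, dut at -0.040 and cdk2 at 0.011 on spikes, with limma adjusted p of 0.297, 0.901 and 0.975, and cdk2 was at -0.47 on hybridization controls (limma adjusted p 0.0731). There lmnb2 became called, at 0.50 on array medians, 0.79 on hybridization controls and 1.27 on spikes. Between ERbeta2 MO and uninjected embryos, dut was at -0.32 on spikes, cdk2 at -0.31 on hybridization controls and -0.044 on spikes, and lmnb2 at -0.45 and -0.18, none called. Between coMO and uninjected embryos, where neither was called in any setting, dut was at -0.010 on medians, -0.063 on hybridization controls and -0.28 on spikes, and cdk2 at -0.055 on spikes. These scalings shift all probe sets alike, by construction.

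Leaving out 1 array at a time gave 3 to 4 called of the 4 genes between ERbeta2 MO and each control group, and 0 to 1 between coMO and uninjected embryos. Differences between ERbeta2 MO and coMO ranged from -1.67 to -0.92 for top2a, -1.06 to -0.89 for dut, -1.01 to -0.83 for cdk2 and 0.14 to 0.54 for lmnb2. Against uninjected embryos they ranged from -2.15 to -1.40, -1.04 to -0.87, -0.97 to -0.39 and -0.92 to -0.72 in the same gene order. Between coMO and uninjected embryos they ranged from -0.69 to -0.27, -0.021 to 0.057, -0.051 to 0.53 and -1.36 to -0.95. A lone array left in a group is assumed to vary like the other groups. Pathway probe sets called numbered 43 to 46, 44 to 46 and 0.

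Same-numbered replicates correlated at 0.0156, 0.0134 and 0.118 in their deviations, so the numbers were not taken as pairs. A replicate block gave the same counts of the 4 genes called (3, 4 and 1) and of pathway probe sets (46, 46 and 0). A filter that drops the lowest 60% of signals leaves top2a with no value. The signals of top2a are dim, and each group holds 2 arrays. The calls of the 4 genes kept their side of the threshold under offsets of 1 and 64, no filter, quantile normalization, eBayes without a trend and fits on the 2 groups compared.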
